A study of Mus musculus with 12 samples.

Results

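Transcripts of the muscle acetylcholine receptor and of the proteins that assemble the neuromuscular synapse were followed in C2C12 cells, a mouse myoblast line that fuses into myotubes when serum is withdrawn. The 8 genes were taken by symbol from the deposited table of 54532 genes. They were the receptor subunits Chrna1, Chrnb1, Chrnd and Chrng, the scaffold gene Rapsn, and the signalling genes Lrp4, Musk and Dok7, and all 8 were among the 15122 genes with enough counts to be tested. The labels give 30 nM of siRNA for 48 h. Whether the siRNAs of the double depletion shared this dose or each had it is not stated, nor is it stated which of the study's Ccnf siRNAs was sequenced. The 4 groups, each of 3 biological replicates, received a non-targeting control (siCONTROL), depletion of Keap1 (siKEAP1), depletion of Ccnf (siCCNF) or both depletions together (siKEAP1/siCCNF). KEAP1 is the adaptor through which a CUL3 ubiquitin ligase degrades NRF2, and CCNF (cyclin F) is the substrate adaptor of an SCF ubiquitin ligase that targets cell-cycle regulators. The study sequenced these cells to ask if CCNF acts on myoblasts through NRF2. All libraries came from cells labelled myoblasts of this 1 line, with no nerve present, and the labels and the methods of the paper give different serum concentrations for their growth.

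The muscle receptor is a pentameric ion channel. It holds alpha subunits with a beta, a delta and, before innervation, a gamma subunit, and an epsilon subunit replaces gamma in adult muscle. At the synapse, agrin from the nerve binds LRP4, which activates the kinase MuSK. DOK7 is the adaptor that sustains MuSK activity, and rapsyn, the product of Rapsn, clusters the receptors beneath the nerve ending. Cultured myoblasts express these genes at low levels and raise most of them as they differentiate, under myogenic factors that bind E-boxes.

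Libraries held 18464209 to 37743198 counts. The siRNAs lowered their targets: Keap1 stood at 87.8 ± 3.05 CPM (counts scaled to library size) in siCONTROL, 12.6 ± 0.28 in siKEAP1 and 24.1 ± 2.56 in siKEAP1/siCCNF. Ccnf fell from 81.1 ± 3.99 CPM in siCONTROL to 20.5 ± 0.78 in siCCNF and 24.5 ± 1.01 in siKEAP1/siCCNF. It also fell to 59.4 ± 4.83 CPM in siKEAP1 (edgeR log2 fold change -0.45 ± 0.07, adjusted p = 0.000258). Errors of means are SD over 3 libraries throughout. Log2 fold changes carry their standard error, and p-values come from edgeR's quasi-likelihood test adjusted over all tested genes. Replicate 1 of siCONTROL and replicate 3 of siKEAP1/siCCNF stood apart from their groups. Their deviations from the group mean ran against gene length (r = -0.305 and -0.276 over 15122 genes, against -0.0944 to 0.206 in the other libraries). Calls that changed when both libraries were left out are given beside the genes concerned.

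To show the sequence in front of genes that differed in their response, the promoter windows of Chrna1, Chrng and Musk are printed 5′ to 3′ on the gene's strand. Chrna1 fell in every comparison with siCONTROL, and Chrng fell where its neighbour Chrnd did not. Musk passed the test in no comparison when all libraries were fitted. The windows come from RefSeq (GRCm38.p6) and run from base 250 to base 11 before the start of transcription that RefSeq gives. The start of Chrng in the deposited table lies upstream of this one, and its window is inside the gene as counted. They lie at chr2:73580349-73580588 (minus strand), chr1:87205561-87205800 and chr4:58285712-58285951 (both plus strand). Capitals mark E-boxes (CANNTG), a motif that reads the same on both strands.
Chrna1: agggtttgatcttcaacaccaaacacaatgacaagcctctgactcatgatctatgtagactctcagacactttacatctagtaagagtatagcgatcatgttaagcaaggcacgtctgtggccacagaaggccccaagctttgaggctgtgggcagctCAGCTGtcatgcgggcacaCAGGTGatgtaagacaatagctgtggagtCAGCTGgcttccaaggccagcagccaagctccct
Chrng: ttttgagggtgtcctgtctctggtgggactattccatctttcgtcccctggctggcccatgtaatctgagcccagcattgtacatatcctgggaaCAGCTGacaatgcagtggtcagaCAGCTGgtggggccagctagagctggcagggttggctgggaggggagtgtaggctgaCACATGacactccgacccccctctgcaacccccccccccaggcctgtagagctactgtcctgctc
Musk: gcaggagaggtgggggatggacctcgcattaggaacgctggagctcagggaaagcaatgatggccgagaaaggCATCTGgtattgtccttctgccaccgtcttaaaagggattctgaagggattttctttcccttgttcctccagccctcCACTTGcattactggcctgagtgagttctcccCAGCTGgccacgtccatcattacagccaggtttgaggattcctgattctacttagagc
Chrna1 held 3 E-boxes, the nearest to the start beginning 44 bases before it, and 2 of them were CAGCTG. Chrng also held 3 with 2 CAGCTG, and Musk held 3 with 1. Chrnb1 held 3 and none of this form, and the upstream window of Dok7 held 1. Among 32851 promoter windows of this length, 11.3% held at least 3 E-boxes and 1.14% held at least 2 CAGCTG. The ETS motif known as the N-box (CCGGAA, searched on both strands) occurred in 11.2% of windows and in none of those of these 5 genes. A match here is a description of letters and not a measured binding site. Windows for 5 of the 8 genes were matched. Chrnd, Rapsn and Lrp4 were not.

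In control cells Chrna1 was the most abundant of these transcripts per length, and Dok7 the least. On the deposited FPKM scale, which divides by gene length, siCONTROL held 61.1 ± 12.3 for Chrna1 and 39.5 ± 7.75 for Rapsn. Lrp4 (11.4 ± 2.17), Chrnb1 (10.2 ± 2.59) and Musk (8.05 ± 1.48) followed and overlapped each other between libraries. Musk, Chrnd (6.27 ± 2.29) and Chrng (4.67 ± 1.62) each overlapped the next in this order. Dok7 was at 1.5 ± 0.55 FPKM, below every Chrng value. After siCCNF the order changed at the top. Rapsn was at 44.4 ± 1.23 FPKM, above Chrna1 at 9.67 ± 0.83, and the libraries of these genes did not overlap. Musk (7.40 ± 0.48) and Lrp4 (7.06 ± 1.11) came next and overlapped each other. After siKEAP1, Chrng had the lowest mean at 0.689 ± 0.225 FPKM, and its libraries overlapped those of Dok7 at 1.02 ± 0.17.

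After siKEAP1 4 of the 8 genes fell, after siCCNF 6 and after both siRNAs 6, and none rose against siCONTROL. After siKEAP1, Chrna1, Chrng, Rapsn and Lrp4 fell. Of all tested genes 20.2% fell and 20.4% rose in this comparison. The median log2 fold change was -0.70 over the 8 genes and -0.01 over all tested genes. After siCCNF, Chrna1, Chrnb1, Chrnd, Chrng, Dok7 and Lrp4 fell, where 25.5% of all genes fell and 22.5% rose. The median was -2.14 over the 8 genes and 0.01 over all genes. The same symbols fell after siKEAP1/siCCNF, where 23.6% of all genes fell and 20.6% rose, with a median of -1.80 beside 0.01 for all genes. These 3 comparisons share the siCONTROL libraries. A bulk measurement cannot tell apart fewer cells that express a gene and less RNA of it per cell.

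Between the double depletion and siKEAP1 alone, Chrna1, Chrnb1, Chrnd, Dok7 and Lrp4 were lower and Rapsn was higher. Among all genes 26.9% were lower and 24.1% higher in that comparison. Between the double depletion and siCCNF alone only Lrp4 passed the test, and it was lower. There 2.19% of all genes were lower and 3.00% higher. The interaction is the log2 change after siKEAP1 in CCNF-depleted cells minus the same change in control cells. It was positive for Chrna1, Chrnb1, Chrng and Rapsn, with 10.6% of all genes positive and 10.5% negative. Keap1 itself was less depleted in CCNF-depleted cells (interaction 0.98 ± 0.11, edgeR adjusted p = 6.99e-05), and the part of this in the interactions was not tested. With the 2 libraries that stood apart left out, the counts were 4 lower after siKEAP1, 1 higher and 7 lower after siCCNF, and 1 higher and 6 lower after siKEAP1/siCCNF. All genes were also called more often in that fit. Of them 25% were lower after siKEAP1, 27.9% lower and 26.7% higher after siCCNF, and 25.4% lower and 23.4% higher after both. There, 6 of the 8 genes were lower and 2 higher in siKEAP1/siCCNF than in siKEAP1 (29.9% and 28.9% of all genes), and 6 had a positive interaction (16.4% of all genes).

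**Figure D1:**
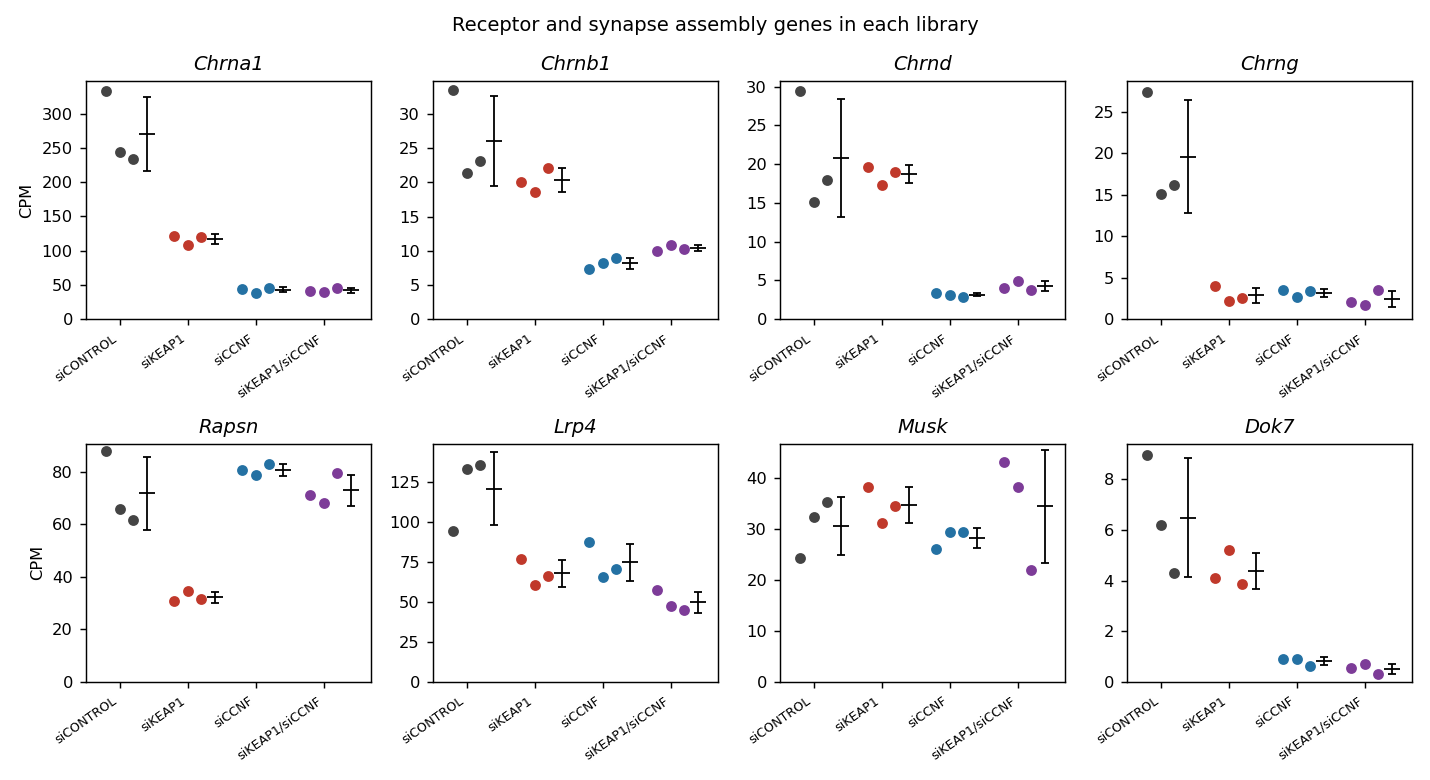
Expression of the 8 genes in each library, in CPM on linear axes that start at 0. Points are the 3 libraries of a group in order of replicate number, and the bar to their right is the mean with its SD. Chrna1, Chrnb1, Chrnd and Dok7 are low in both groups that received siCCNF, Chrng is low in all 3 depleted groups, Rapsn is low in siKEAP1, and every group overlaps siCONTROL for Musk.

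Chrna1, the subunit that carries most of the binding site for acetylcholine, had 333, 244 and 234 CPM in the siCONTROL libraries. It had 122, 108 and 120 CPM in siKEAP1 and 44.8, 38.6 and 45.0 in siCCNF. The double depletion had 41.9, 39.1 and 45.6 CPM. No library of a depleted group reached the control range, and the siCCNF and siKEAP1/siCCNF libraries overlapped. Chrna1 (ENSMUSG00000027107, chromosome 2) fell 2.31-fold after siKEAP1, with a log2 fold change of -1.21 ± 0.12 (edgeR adjusted p = 4.04e-06). It fell 6.30-fold after siCCNF (-2.66 ± 0.13, edgeR adjusted p = 8.15e-09) and 6.41-fold after both (-2.68 ± 0.13, adjusted p = 9.12e-09). Adding siKEAP1 to siCCNF changed it by -0.02 on the log2 scale, with a 95% interval of -0.29 to 0.24. The interaction was 1.19 ± 0.17 (adjusted p = 0.000364).

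Chrnb1, the beta subunit, had 33.5, 21.3 and 23.1 CPM in siCONTROL, 20.1, 18.6 and 22.1 in siKEAP1, 7.33, 8.24 and 8.96 in siCCNF, and 9.96, 10.9 and 10.3 in siKEAP1/siCCNF. The siKEAP1 libraries overlapped the control libraries, and both groups with siCCNF lay below them. Chrnb1 fell 3.18-fold after siCCNF (-1.67 ± 0.15, edgeR adjusted p = 1.71e-06) and 2.50-fold after both (-1.32 ± 0.15, adjusted p = 1.42e-05). After siKEAP1 the log2 fold change was -0.36 ± 0.15 (edgeR adjusted p = 0.0714). It passed the test at -0.49 without siCONTROL replicate 2 and at -0.44 without replicate 3, and it was -0.14 without replicate 1. With no filter on low counts it passed at -0.37 (edgeR adjusted p = 0.0237). The interaction of 0.70 ± 0.22 (edgeR adjusted p = 0.034) no longer passed in 6 of 12 fits that left out a library. Those were fits without siKEAP1, siCCNF or siKEAP1/siCCNF replicate 1 or 2.

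Chrnd, the delta subunit, did not pass the test after siKEAP1 and fell in both groups with siCCNF. It had 29.4, 15.1 and 17.9 CPM in siCONTROL and 19.6, 17.3 and 19.0 in siKEAP1. It had 3.36, 3.19 and 2.93 CPM in siCCNF and 4.05, 4.99 and 3.73 in siKEAP1/siCCNF. The siKEAP1 values lay inside the control range. The siKEAP1 change was -0.16 ± 0.19 on the log2 scale, with a 95% interval of -0.58 to 0.26 (edgeR adjusted p = 0.55), and it was 0.17 without siCONTROL replicate 1. The fall was 6.59-fold after siCCNF (-2.72 ± 0.22, edgeR adjusted p = 4.86e-07) and 4.85-fold after both (-2.28 ± 0.21, adjusted p = 2.38e-06). The log2 difference of Chrnd between siKEAP1/siCCNF and siCCNF was 0.44 ± 0.23 (edgeR adjusted p = 0.348), and this passed at 0.52 without both libraries that stood apart (adjusted p = 0.0242).

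Chrng, the gamma subunit of receptors before innervation, fell in all 3 depleted groups. It had 27.4, 15.1 and 16.2 CPM in siCONTROL, 3.95, 2.19 and 2.50 in siKEAP1, 3.51, 2.64 and 3.35 in siCCNF, and 2.02, 1.72 and 3.56 in siKEAP1/siCCNF. The depleted groups overlapped each other and none reached the controls. The fall was 6.85-fold after siKEAP1 (-2.78 ± 0.30, edgeR adjusted p = 8.43e-06), 6.14-fold after siCCNF (-2.62 ± 0.29, adjusted p = 8.11e-06) and 8.19-fold after both (-3.03 ± 0.30, adjusted p = 4.03e-06). In CCNF-depleted cells siKEAP1 changed Chrng by -0.42 ± 0.32 (edgeR adjusted p = 0.555), and by -0.78 without siKEAP1/siCCNF replicate 3 (adjusted p = 0.238). Without both libraries that stood apart it passed at -0.78 (edgeR adjusted p = 0.0364), and so did the difference of -0.61 between the double depletion and siKEAP1 (adjusted p = 0.0427). The interaction was 2.36 ± 0.44 (edgeR adjusted p = 0.00202), the highest of the 8 genes. It was 1.68 without both libraries that stood apart.

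Chrnd and Chrng lie side by side on chromosome 1, on the plus strand and 4586 bases apart by the coordinates of the deposited table. Both fell after siCCNF, and of the pair only Chrng fell after siKEAP1. The log2 ratio of Chrng to Chrnd in CPM was -0.10, 0.01 and -0.14 in siCONTROL and -2.31, -2.99 and -2.93 in siKEAP1. The siKEAP1 and control libraries did not overlap, and the means differed by -2.66 (exact two-sided permutation test, p = 0.1, the smallest value that 3 against 3 libraries allow). The ratio in siCCNF was 0.06, -0.27 and 0.20, on both sides of the control values, with a difference of 0.08 (exact permutation p = 0.6). In siKEAP1/siCCNF it was -1.0, -1.53 and -0.07, and the library that stood apart was the one nearest to the controls (difference -0.79, exact permutation p = 0.3). In all 9 ratio tests were made, and the smallest p after Benjamini-Hochberg adjustment was 0.225.

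Per length, the summed FPKM of Chrna1, Chrnb1, Chrnd, Chrng and Chrne was 71.2 to 104 in siCONTROL and 37.7 to 42.6 in siKEAP1. It was 13.5 to 15.4 in siCCNF and 15.0 to 16.4 in siKEAP1/siCCNF. Chrna1 made up 72.5% to 77.0% of that sum in siCONTROL and 64.4% to 65.2% in siKEAP1. The share of Chrng was 5.04% to 6.29% in siCONTROL, 1.39% to 2.22% in siKEAP1 and 4.64% to 5.62% in siCCNF. Chrnd held 6.36% to 8.54% of the sum in siCONTROL and 13.6% to 14.0% in siKEAP1, with no overlap between these groups. Chrne, the adult epsilon subunit, had at most 4 counts in any library and was too low to test. These are shares of transcripts and give no subunit composition of the receptor.

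Rapsn fell after siKEAP1 and passed the test in neither comparison of CCNF-depleted cells with siCONTROL, where the 4 receptor genes fell. It had 87.8, 65.9 and 61.7 CPM in siCONTROL and 30.7, 34.6 and 31.4 in siKEAP1. It had 80.7, 78.6 and 83.1 CPM in siCCNF and 71.0, 68.2 and 79.5 in siKEAP1/siCCNF. Only the siKEAP1 libraries lay below the control range. Rapsn fell 2.22-fold after siKEAP1 (-1.15 ± 0.12, edgeR adjusted p = 4.41e-06). Its log2 fold change was 0.17 ± 0.11 after siCCNF (95% interval -0.07 to 0.41, edgeR adjusted p = 0.233) and 0.02 ± 0.11 after both (-0.22 to 0.27, adjusted p = 0.90). The siCCNF value passed the test as a rise of 0.34 without siCONTROL replicate 1 (edgeR adjusted p = 0.00268). Between siKEAP1/siCCNF and siCCNF it was -0.15 ± 0.11 (edgeR adjusted p = 0.544), which passed at -0.22 without both libraries that stood apart (adjusted p = 0.0184). Rapsn was 2.26-fold higher in siKEAP1/siCCNF than in siKEAP1 (1.17 ± 0.12, edgeR adjusted p = 2.71e-06), and the interaction was 1.00 ± 0.16 (adjusted p = 0.000753). Keap1 itself was also higher in the double depletion than in siKEAP1 (0.94 ± 0.08 on the log2 scale, edgeR adjusted p = 1.07e-06). The part of this difference in the Rapsn result was not tested. The 3′ part of Rapsn is overlapped by the antisense gene Gm13778, and the strand setting of the counting is not given in the sources used here. Gm13778 was listed at 5 to 48 counts and Rapsn at 662 to 3100. Without a known strand setting, how many reads of the overlap were given to the wrong gene cannot be told.

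The scaffold transcript was also set against that of the receptor's alpha subunit in each library. The log2 ratio of Rapsn to Chrna1 in CPM was -1.92, -1.89 and -1.92 in siCONTROL and -1.99, -1.64 and -1.93 in siKEAP1. It was 0.85, 1.02 and 0.89 in siCCNF and 0.76, 0.81 and 0.80 in siKEAP1/siCCNF. All 6 libraries with siCCNF lay above all others. The difference from siCONTROL was 2.83 after siCCNF and 2.70 after both (exact permutation p = 0.1 for each), and 0.06 after siKEAP1 (exact permutation p = 1.0, with the siKEAP1 libraries on both sides of the controls).

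**Figure D2:**
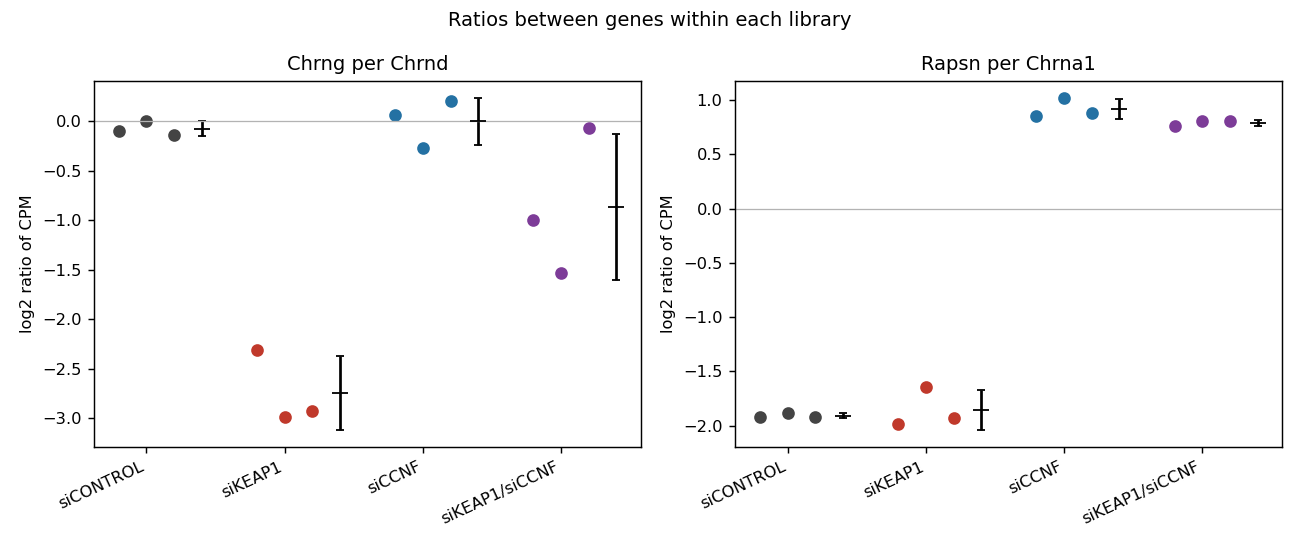
Log2 ratios of CPM between genes in each library, Chrng per Chrnd on the left and Rapsn per Chrna1 on the right. Points are libraries in order of replicate number and bars are means with SD over 3 libraries. The siKEAP1 libraries lie between -2.99 and -2.31 on the left, and the libraries with siCCNF lie between 0.76 and 1.02 on the right.

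Lrp4, the muscle receptor for agrin, fell in all 3 depletions, as did Chrna1 and Chrng, but by a smaller amount. It had 94.4, 133 and 136 CPM in siCONTROL, 77.2, 60.6 and 66.1 in siKEAP1, 87.7, 65.7 and 70.9 in siCCNF, and 57.5, 47.2 and 45.0 in siKEAP1/siCCNF. All depleted libraries were below the controls, and those of siKEAP1 and siCCNF overlapped. Lrp4 fell 1.78-fold after siKEAP1 (-0.83 ± 0.15, edgeR adjusted p = 0.000697), 1.62-fold after siCCNF (-0.69 ± 0.15, adjusted p = 0.00211) and 2.42-fold after both (-1.28 ± 0.15, adjusted p = 2.08e-05). The interaction was 0.25 with a 95% interval of -0.22 to 0.71 (edgeR adjusted p = 0.466), and it passed at 0.47 without both libraries that stood apart (adjusted p = 0.0374). The double depletion was below siKEAP1 by -0.44 ± 0.15 (edgeR adjusted p = 0.0275), a call lost without siKEAP1 replicate 1 (-0.34) or 3 (-0.46) or siKEAP1/siCCNF replicate 2 (-0.40) or 3 (-0.37). It was below siCCNF by -0.58 ± 0.15 (edgeR adjusted p = 0.0441), a call lost in 9 of 12 fits that left out a library, with log2 fold changes of -0.70 to -0.46 over the 12. It held without siCONTROL replicates 1 and 3 and siKEAP1/siCCNF replicate 1. Lrp4 lies 411781 bases from Rapsn on chromosome 2, and the log2 ratio of Rapsn to Lrp4 was -0.75 ± 0.56 in siCONTROL, -1.07 ± 0.26 in siKEAP1, 0.12 ± 0.21 in siCCNF and 0.55 ± 0.26 in siKEAP1/siCCNF. Exact permutation p against siCONTROL was 0.6, 0.2 and 0.1. The control libraries were at -0.10, -1.01 and -1.14, the highest being the one that stood apart. They overlapped those of siKEAP1 and siCCNF.

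Musk, the receptor tyrosine kinase at the centre of this pathway, passed the test in none of the 6 comparisons. It had 24.3, 32.3 and 35.3 CPM in siCONTROL, 38.2, 31.2 and 34.5 in siKEAP1, 26.0, 29.3 and 29.4 in siCCNF, and 43.1, 38.2 and 22.0 in siKEAP1/siCCNF. The siKEAP1 libraries lay above the siCCNF libraries, a difference that was not tested, and all other pairs of groups overlapped. The lowest values of the control and double groups came from the libraries that stood apart. The 95% intervals of the log2 fold change against siCONTROL were -0.26 to 0.62 after siKEAP1, -0.55 to 0.32 after siCCNF and -0.26 to 0.61 after both. Without siKEAP1/siCCNF replicate 3 the last comparison passed at 0.41 (edgeR adjusted p = 0.0313). Without both libraries that stood apart, Musk passed in 5 of the 6 comparisons. It was -0.26 after siCCNF (edgeR adjusted p = 0.021), 0.26 after siKEAP1/siCCNF (adjusted p = 0.0371), 0.24 between siKEAP1/siCCNF and siKEAP1 (adjusted p = 0.0278) and 0.52 between siKEAP1/siCCNF and siCCNF (adjusted p = 0.000742). The interaction was 0.50 in that fit (edgeR adjusted p = 0.00617).

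Dok7, the adaptor that keeps MuSK active, had 8.97, 6.19 and 4.29 CPM in siCONTROL and 4.09, 5.19 and 3.86 in siKEAP1. It had 0.912, 0.894 and 0.644 CPM in siCCNF and 0.556, 0.708 and 0.308 in siKEAP1/siCCNF. The siKEAP1 libraries overlapped the controls, and the libraries with siCCNF lay far below both. Dok7 fell 7.97-fold after siCCNF (-2.99 ± 0.30, edgeR adjusted p = 3.77e-06) and 11.9-fold after both (-3.58 ± 0.33, adjusted p = 1.88e-06). After siKEAP1 the log2 fold change was -0.57 ± 0.26 (edgeR adjusted p = 0.105), and it passed at -0.80 without siCONTROL replicate 3 and at -0.58 with no filter on low counts (edgeR adjusted p = 0.0478). The interaction was -0.02, with a 95% interval of -0.83 to 0.80 (edgeR adjusted p = 0.984). Lrp4 and Dok7, on either side of MuSK, fell after siCCNF, and the kinase transcript between them did not pass. Without both libraries that stood apart, Musk passed as lower in this comparison, at -0.26 (edgeR adjusted p = 0.021).

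**Figure D3:**
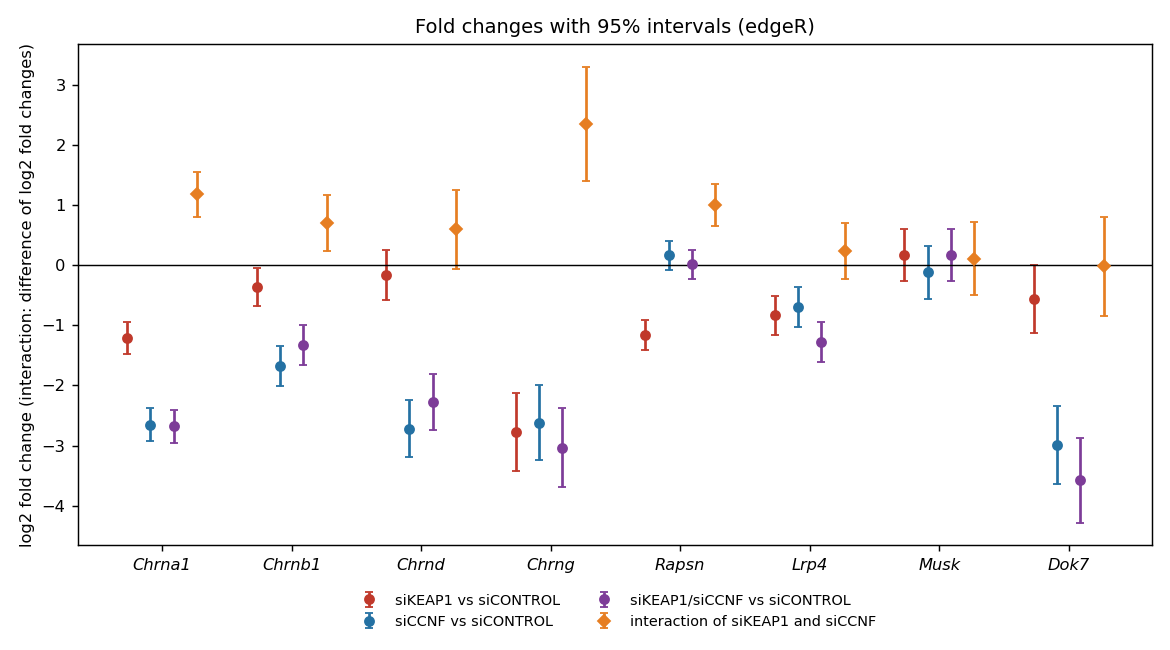
Log2 fold changes of the 8 genes against siCONTROL (circles) and the interaction of both siRNAs (diamonds, a difference of log2 fold changes), with 95% intervals from edgeR. For Chrna1, Chrnb1, Chrnd and Dok7 the siCCNF intervals lie wholly below the siKEAP1 intervals, a difference that was not tested. Those of Chrng overlap in all depletions, and the interval of Rapsn crosses 0 in both groups with siCCNF.

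Across the 12 libraries, the log2 CPM of Chrnb1 and Chrnd had the highest correlation among these genes (Pearson r = 0.977). Dok7 followed Chrnd at r = 0.945. The correlation of Rapsn with Chrnd was -0.578, and that of Musk with the other 7 genes was -0.461 to 0.147. These libraries fall into 4 groups, and the values describe the group pattern and its spread. Among other tested genes, the patterns most like each gene were those of Slc29a1 and Adprh for Chrna1 (r = 0.998 and 0.997), Sccpdh and Wbp4 for Chrnb1 (0.990 and 0.988), and Fam136a and Tmem183a for Chrnd (0.990 for each). Cavin1 and Trp53i13 were nearest to Chrng (0.989 and 0.986), Utp3 and Kmt5a to Rapsn (0.993 and 0.992), and Trak1 and Sulf1 to Lrp4 (0.964 and 0.963). For Dok7 they were Gga2 and Aida (0.985 and 0.983). Musk had the least close neighbours, Pak3 and Hgf, at 0.902 and 0.877.

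Other genes of the neuromuscular junction changed in both directions. Of 18 listed, 14 were tested. After siKEAP1, 3 rose and 5 fell, after siCCNF 4 rose and 1 fell, and after both 2 rose and 4 fell, with medians of -0.11, 0.07 and -0.01 beside -0.01, 0.01 and 0.01 for all genes. Of all tested genes 20.4%, 22.5% and 20.6% rose and 20.2%, 25.5% and 23.6% fell in these 3 comparisons. Agrn, the muscle and nerve ligand of LRP4, had 78.4, 125 and 122 CPM in siCONTROL, 224, 284 and 246 in siCCNF and 233, 261 and 198 in siKEAP1/siCCNF. It rose by 1.21 ± 0.17 on the log2 scale after siCCNF (edgeR adjusted p = 6.88e-05) and by 1.09 ± 0.17 after both (adjusted p = 0.000183), while Lrp4 fell in the same libraries. Erbb3, a neuregulin receptor, rose after siKEAP1 (1.0) and fell after siCCNF (-1.79) and after both (-1.97) from 1.39 ± 0.42 CPM. Nrg1, its ligand, rose after siCCNF (0.94) and after both (0.83). Colq, which anchors acetylcholinesterase, rose after siCCNF (1.71) from 0.181 ± 0.042 CPM. After siKEAP1, Syne1, a nuclear anchor, and Lama5, a laminin chain, rose by 1.42 and 1.37. Ncam1, an adhesion molecule, fell by 0.76 after siKEAP1 and by 0.39 after both, and the syntrophin gene Sntb1 fell by 0.74 after siKEAP1.

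Downstream of MuSK, all 14 listed genes were tested. After siKEAP1 5 rose and 3 fell, after siCCNF 4 rose and 4 fell, and after both 3 rose and 4 fell. The medians were 0.03, -0.035 and -0.16. Among all tested genes, 20.4%, 22.5% and 20.6% rose and 20.2%, 25.5% and 23.6% fell. Rac1, a GTPase that acts in receptor clustering, had 404, 372 and 375 CPM in siCONTROL and 159, 141 and 145 in siKEAP1. It fell by 1.37 after siKEAP1, by 0.48 after siCCNF and by 0.86 after both on the log2 scale (edgeR adjusted p = 8.02e-09, 5.76e-05 and 4.51e-07). Its effector kinase Pak1 fell by 0.42 in each single depletion and by 0.38 after both. Ctnnb1, beta-catenin, rose by 0.39 after siKEAP1 and fell by 0.44 after siCCNF and by 0.35 after both. Src, a kinase that phosphorylates the receptor, rose after siCCNF and after both (0.73 and 0.65). Abl2, a kinase that acts with MuSK, rose after siKEAP1 and siCCNF (0.47 and 0.69), the MuSK-binding ligase gene Pdzrn3 rose in all 3 depletions (0.53, 0.26 and 0.19), and the adaptor Crkl rose after siCCNF (0.56) and after both (0.43).

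Genes for folding and glycosylation of the receptor changed by less than 2-fold. Of 9 listed, 7 were tested. None rose and 1 fell after siKEAP1, 4 rose and 2 fell after siCCNF, and 2 rose and 2 fell after both. Beside these, 20.4%, 22.5% and 20.6% of all tested genes rose and 20.2%, 25.5% and 23.6% fell. Hspa5, the chaperone BiP, fell by 0.22 after siKEAP1 and rose by 0.37 after siCCNF and by 0.19 after both. Gmppb, which makes GDP-mannose, rose after siCCNF and after both (0.67 and 0.45), and Gfpt1, of the hexosamine pathway, rose after siCCNF (0.47). The N-glycan enzymes Alg14 and Alg2 fell by 0.55 and 0.31 after siCCNF and by 0.40 and 0.17 after both. Of the 11 subunit genes of neuronal acetylcholine receptors, only Chrnb2 had enough counts to test, and it passed in no comparison. Chrna6, Chrna7, Chrna9, Chrna10 and Chrnb3 had 0 counts in every library.

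The myogenic factors Myod1, Myf5 and Myog, which bind E-boxes of muscle genes, fell in all 3 depletions. Of 20 listed regulators of synaptic genes, 18 were tested. After siKEAP1 5 rose and 8 fell, after siCCNF 2 rose and 13 fell, and after both 2 rose and 12 fell, with medians of -0.24, -0.61 and -0.58. The shares of all tested genes were 20.4%, 22.5% and 20.6% for rises and 20.2%, 25.5% and 23.6% for falls. Myod1 had 253, 222 and 206 CPM in siCONTROL, 68.7, 67.1 and 69.9 in siKEAP1, 69.3, 78.3 and 80.2 in siCCNF, and 78.5, 76.1 and 85.9 in siKEAP1/siCCNF. The 3 depleted groups lay below the controls, and the siCCNF libraries overlapped those of siKEAP1 and those of siKEAP1/siCCNF. Myod1 fell by 1.73, 1.58 and 1.5 on the log2 scale (edgeR adjusted p = 8.02e-09, 1.86e-08 and 3.85e-08). Myf5 fell from 86.3 ± 8.28 CPM to 41.7 ± 2.59, 29.5 ± 0.15 and 27.7 ± 1.34.

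Myogenin, which rises as myoblasts differentiate, showed another order. Myog had 74.6, 32.0 and 29.3 CPM in siCONTROL, 0.232, 0.162 and 0.132 in siKEAP1, 10.1, 6.84 and 7.35 in siCCNF, and 1.51, 1.76 and 2.02 in siKEAP1/siCCNF. No groups overlapped. The lowest Myog was in siKEAP1, whereas Myf5 was lower in both groups with siCCNF than in siKEAP1. Every siCCNF library held more Myog than those of siKEAP1, a difference that was not tested. The part of these factors in the results for the receptor genes was not tested. Myog was lower in siKEAP1/siCCNF than in siCCNF (-2.21 ± 0.36, edgeR adjusted p = 0.0034) and higher than in siKEAP1 (3.30 ± 0.70, adjusted p = 0.00155). Myf6 was at 0.497 ± 0.154 CPM in siCONTROL and fell after siCCNF (-2.12).

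Of the factors that act through N-boxes, the ETS genes Etv4 and Etv5 both rose after siKEAP1 and both fell after siCCNF. Etv4 had 27.7, 21.4 and 23.1 CPM in siCONTROL, 52.9, 60.1 and 57.6 in siKEAP1, and 9.29, 8.71 and 8.48 in siCCNF. The siKEAP1 libraries were above and the siCCNF libraries below all controls. Etv4 rose by 1.24 ± 0.10 after siKEAP1 (edgeR adjusted p = 3.77e-07) and fell by 1.45 ± 0.10 after siCCNF (edgeR adjusted p = 1.39e-07) and by 1.02 ± 0.10 after both (adjusted p = 3.19e-06). Etv5 likewise rose after siKEAP1 (0.50) and fell after siCCNF (-1.80) and after both (-1.39). The GABP genes did not share this pattern. Gabpb1 fell in all 3 depletions (-0.47, -0.58 and -0.56), and Gabpa, the ETS subunit, was at -0.22 after siKEAP1 (edgeR adjusted p = 0.193) and fell after siCCNF (-0.46) and after both (-0.53). Id2, an inhibitor of the myogenic factors, fell from 96.6 ± 6.23 CPM to 84.1 ± 3.15, 47.5 ± 3.02 and 44.0 ± 0.51. The related gene Id1 rose after siKEAP1 (0.24, edgeR adjusted p = 0.0439) and fell after siCCNF (-0.96) and after both (-0.69). Id3 fell in all 3 depletions (-0.46, -0.58 and -0.55). Mef2d and Mef2a, partners of the myogenic factors, rose after siCCNF (0.40 and 0.54) and after both (0.45 and 0.28). After siKEAP1 Mef2d rose (0.51) and Mef2a fell (-0.52). Hdac9 rose after siKEAP1 (1.61, edgeR adjusted p = 0.0499) from 0.279 ± 0.103 CPM.

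**Figure D4:**
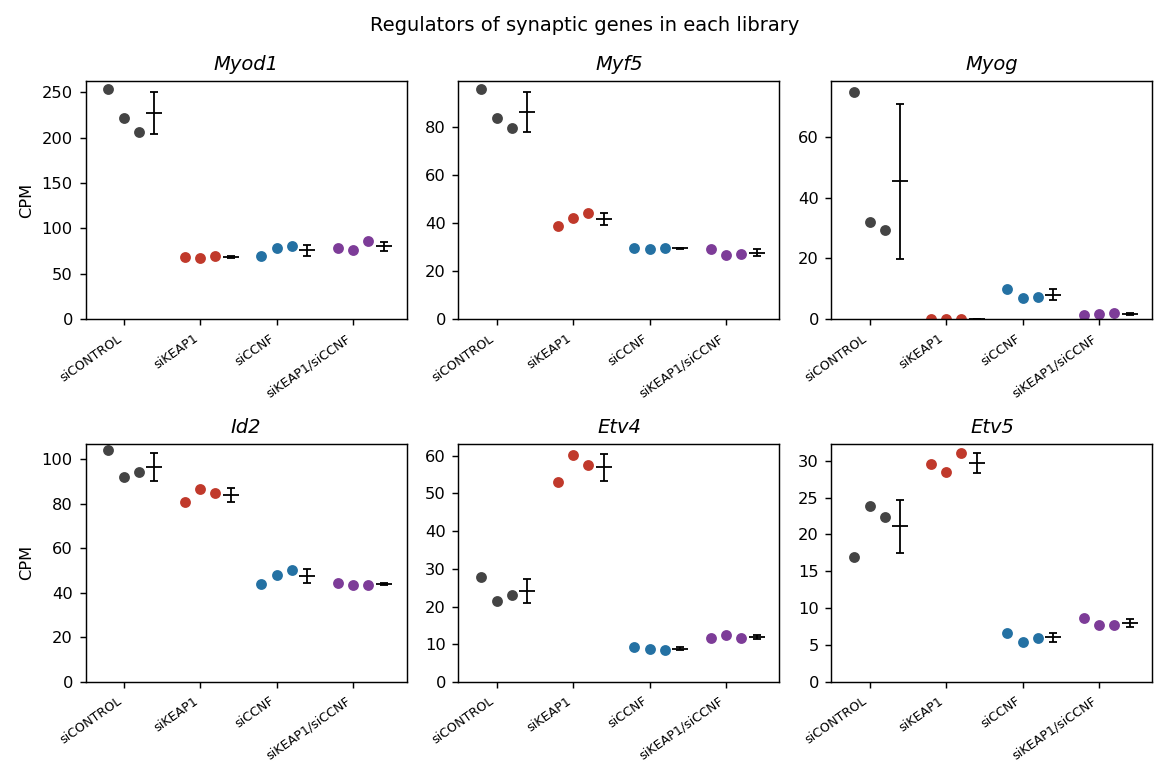
CPM of 6 regulators of synaptic genes in each library, on linear axes that start at 0. Points are libraries in order of replicate number and bars are means with SD over 3 libraries. Myod1 and Myf5 fall in every depletion, Myog is lowest in siKEAP1, Id2 is lowest in the groups with siCCNF, and Etv4 and Etv5 lie above the controls in siKEAP1 and below them with siCCNF.

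Markers of myoblasts and early myotubes also fell in the depleted groups. The 6 myoblast markers were Myod1, Myf5, Pax7, Cdh15, Itga7 and Des. Of these, Myod1 and Myf5 also stand among the regulators above, and Des was the most abundant in siCONTROL (614 ± 62.3 CPM). All 6 myoblast markers fell in each comparison with siCONTROL, where 20.2%, 25.5% and 23.6% of all tested genes fell after siKEAP1, siCCNF and both. Their summed level was 1400 to 1620 CPM in siCONTROL, 858 to 887 in siKEAP1, 634 to 645 in siCCNF and 615 to 704 in siKEAP1/siCCNF. Of 7 myotube markers 5 were tested, and 5, 4 and 5 of them fell after siKEAP1, siCCNF and both. The myotube sum was 22.8 to 49.6 CPM in siCONTROL, 2.89 to 3.20 in siKEAP1, 8.11 to 11.6 in siCCNF and 4.22 to 5.48 in siKEAP1/siCCNF, and its highest value belonged to siCONTROL replicate 1. The lowest myotube sums were those of siKEAP1, and the lowest myoblast sums and receptor sums were those of siCCNF and siKEAP1/siCCNF. Replicate 1 of siCONTROL also held the highest Chrna1, Chrnb1, Chrnd, Chrng, Rapsn and Dok7 of the control group and the lowest Lrp4 and Musk. The part of these markers in the results for the receptor genes was not tested.

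Markers of other cell types were also counted. Of 5 neuron markers only Syp was tested and it passed in no comparison with siCONTROL, their sum was 0.0482 to 0.651 CPM in siCONTROL, 0.482 to 0.511 in siKEAP1, 0.0778 to 0.485 in siCCNF and 0.198 to 0.246 in siKEAP1/siCCNF, and Snap25, Chat and Slc18a3 were at 0. The Schwann cell marker Sox10 was at 0. The leukocyte marker Ptprc had at most 3 counts in a library and was not tested. Of 2 endothelial markers Cdh5 was tested and fell after both siRNAs, with sums of 0.359 to 0.626 CPM in siCONTROL, 0.833 to 1.38 in siKEAP1, 0 to 0.505 in siCCNF and 0.132 to 0.277 in siKEAP1/siCCNF. Both fibroblast markers, Pdgfra and Dpt, fell after siKEAP1. Pdgfra rose after siCCNF (1.34) and after both (1.06). Dpt did not pass there, at -0.49 and -0.085 (edgeR adjusted p = 0.285 and 0.869). Their sums were 42.2 to 65.6 CPM in siCONTROL, 40.4 to 43.1 in siKEAP1, 138 to 142 in siCCNF and 101 to 130 in siKEAP1/siCCNF. These sums were mostly Pdgfra, which had 139 ± 2.41 CPM in siCCNF beside 1.49 ± 0.27 for Dpt. The part of the markers of other cell types in the results was not tested.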

How the data were processed

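RNA of 12 samples was sequenced as poly(A)-selected libraries. Per the submitters' processing notes reads were aligned with HISAT2, and the genome build named there is GRCm39. The identifiers and coordinates of the table match GRCm38: 98.3% of the 54409 identifiers found in GENCODE M21 had the same start and end. The counting tool and its strand setting are not given in the sources used here. The authors deposited a count per gene and library without normalization and an FPKM value (scaled to gene length and library size). They also deposited fold changes, p-values and adjusted p-values of their own comparisons, which were not used.

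The tests used edgeR 4.0.16 (R 4.3.3). After filterByExpr and TMM scaling (CPM here uses the scaled sizes), all libraries entered 1 quasi-likelihood fit with a mean for each of the 4 groups. Contrasts were each depletion against siCONTROL, both siRNAs against either alone, and the interaction. P-values were adjusted by Benjamini-Hochberg over 15122 genes, and a gene passed at an adjusted p under 0.05. Log2 CPM used a prior count of 2. Ratios within libraries were compared by exact permutation tests. The labels call the replicates biological without giving their origin, and p-values measure the spread between these libraries. No libraries were identical, and replicate pairs differed by more than sampling noise (chi-square per degree of freedom 2.88 to 41).

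The 8 genes and the lists of other genes were chosen with earlier results of these data known. Named are the 8 genes, Keap1, Ccnf, the MyoD family, from each pathway list the 2 largest rises and falls that passed in each comparison with siCONTROL, and for each of the 8 genes the 2 others with the highest Pearson r of log2 CPM among tested genes with a mean of at least 1. The lists were other junction genes, MuSK signalling, receptor folding and glycosylation, regulators of synaptic genes and neuronal receptor subunits. Lists of markers stood for myoblasts, myotubes, neurons, Schwann cells, endothelium, leukocytes and fibroblasts. Some marker results are not reported here. Id1, Id2, Id3, Chrne, Gabpa, Gabpb1, Gm13778 and single markers were named outside this rule after their values were seen.

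Alternatives were DESeq2 1.42.0, unscaled total library sizes, no low-count filter, a minimum of 10 counts per library throughout, the replicate number as a block, limma 3.58.1 fitted to log2(FPKM + 1), the compared libraries alone, an added 2-fold threshold, and fits without each library or without the 2 that stood apart. Same-numbered libraries deviated from their group means with correlations of -0.268 to 0.204, and the numbers were not taken as pairs. E-boxes and N-boxes were searched in 32851 RefSeq windows of 240 bases. The code was tested on simulated data.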

Additional observations from a re-analysis of the deposited data

Results flagged for a closer look

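The effect of siKEAP1 differed between control cells and CCNF-depleted cells for 4 of the 8 genes, by edgeR's test of the interaction. Of all genes 10.6% had a positive interaction and 10.5% a negative one. Keap1 itself was at 12.6 CPM in siKEAP1 and 24.1 in siKEAP1/siCCNF, with an interaction of 0.98 ± 0.11 (edgeR adjusted p = 6.99e-05). The part of this weaker depletion in the 4 differences was not tested. Chrng differed by 2.36 ± 0.44 on the log2 scale (adjusted p = 0.00202), Chrna1 by 1.19 ± 0.17 (adjusted p = 0.000364), Rapsn by 1.00 ± 0.16 (adjusted p = 0.000753) and Chrnb1 by 0.70 ± 0.22 (adjusted p = 0.034). In CCNF-depleted cells the change after siKEAP1 was -0.42 for Chrng, -0.02 for Chrna1, -0.15 for Rapsn and 0.35 for Chrnb1 (adjusted p = 0.555, 0.951, 0.544 and 0.261). In control cells it was -2.78, -1.21, -1.15 and -0.36. Without the 2 libraries that stood apart, the 4 differences were 1.68, 0.95, 0.77 and 0.49 and all passed. The interactions of Musk (0.50) and Lrp4 (0.47) then passed as well, as did the changes after siKEAP1 in CCNF-depleted cells of Chrng (-0.78) and Rapsn (-0.22). The Chrnb1 interaction was lost under the replicate block and in 6 of 12 fits that left out a library.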

How the results depend on the processing

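Values of the 8 genes in 6 comparisons were counted together over the alternatives other than the added 2-fold threshold. Of these, 878 kept their direction and their side of the threshold. With the direction kept, 24 no longer passed and 17 newly passed. Another 27 changed sign, whether or not they also crossed the threshold. The count of genes passing stayed within 1.5 times its reported value under every alternative in 5 comparisons. The exception was siKEAP1/siCCNF against siCCNF. Its count of 1 became 0 with total library sizes, the replicate block, limma on FPKM or the added 2-fold threshold, and 5 (2 higher, 3 lower) without the 2 libraries that stood apart, where 7.31% of all genes were higher and 6.75% lower. Leaving out each library gave 0 to 1.

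The block for the replicate number changed 2 calls. Lrp4 in siKEAP1/siCCNF against siCCNF (-0.58, adjusted p = 0.071) and the interaction of Chrnb1 (0.70, adjusted p = 0.0501) no longer passed, and no other call changed. With no filter on low counts Chrnb1 and Dok7 passed as lower after siKEAP1. With limma the Chrnb1 interaction was also lost (0.57, adjusted p = 0.0514). Some values changed sign. Without the 2 libraries Chrnd after siKEAP1 was 0.17 and Musk in siKEAP1/siCCNF against siKEAP1 was 0.24, which passed the test (adjusted p = 0.0278). The Musk value was 0.0068 with no filter and 0.0017 with the compared libraries alone. Chrna1 in siKEAP1/siCCNF against siCCNF was 0.0066 and the Dok7 interaction 0.0033 with total library sizes, and the Dok7 interaction was 0.21 with limma. The cause of these changes was not tested.

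Leaving out each library in turn gave ranges that crossed 0 for Chrnd after siKEAP1 (-0.35 to 0.17), Musk (-0.019 to 0.41) and Rapsn (-0.085 to 0.18) after siKEAP1/siCCNF, Chrng (-0.61 to 0.029) and Musk (-0.19 to 0.24) in siKEAP1/siCCNF against siKEAP1, Chrna1 in siKEAP1/siCCNF against siCCNF (-0.10 to 0.02), and the interactions of Musk (-0.075 to 0.35) and Dok7 (-0.33 to 0.23). Dok7 and Chrng have the fewest counts of the 8 genes, and their standard errors are the largest.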
